A study of Saccharomyces cerevisiae with 6 samples.

Results

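The genes described here are the 10 that encode the enzymes of the pentose phosphate pathway in Saccharomyces cerevisiae. The rule that picks them uses gene symbols, although they were proposed with earlier results of these data known: 5 of the oxidative branch (ZWF1, SOL3, SOL4, GND1 and GND2) and 5 of the non-oxidative branch (RKI1, RPE1, TKL1, TKL2 and TAL1), out of 5539 genes measured. Each has 2 spots on the array, and all 10 were read on every array. A met4 deletion mutant was hybridised directly against the wild type on 6 two-colour arrays, the mutant labelled with Cy3 and the wild type with Cy5 on each of them. Arsenite, As(III), was present at 0.2 mM for 1 hour in both cultures, so the comparison holds no unexposed cells. The labels give neither the strain background nor the deleted part of MET4, and they leave unsaid whether different cultures lie behind the 6 replicates. The p-values therefore reflect variation among 6 hybridisations, some of which may be technical.

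The pentose phosphate pathway branches from glycolysis at glucose 6-phosphate. Its oxidative branch yields NADPH and ribulose 5-phosphate in irreversible steps, and its non-oxidative branch interconverts sugar phosphates reversibly, which supplies ribose 5-phosphate for nucleotides and erythrose 4-phosphate for aromatic amino acids. In yeast the pathway is a main source of cytosolic NADPH, the reductant used by glutathione reductase, thioredoxin reductase and sulfite reductase. Met4 activates the genes of sulfate assimilation, a route that consumes NADPH, and mutants without ZWF1 were long known as met19 because they need organic sulfur. Several steps have a major and a minor isoenzyme encoded by paralogous genes: SOL3 and SOL4, GND1 and GND2, TKL1 and TKL2, and, for transaldolase, TAL1 and NQM1, which lies outside the set of 10.

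Values are log2 ratios centred on the median of each array, so 0 stands for the typical spot. A positive value means likely higher in the mutant: the files do not state the numerator or the log base, and the direction rests on the order in the sample titles and on the centred level of MET4. MET4 (YNL103W) stood at -0.59 ± 0.25 (SD, n = 6) and below 0 on 6 of 6 arrays (limma, adjusted p = 0.0112), although the values as deposited gave -0.47 with an adjusted p of 0.600. That mean is a 1.51-fold ratio, and 242 of 5539 genes had a lower one, so MET4 is weak ground for the direction. Were the ratio Cy5 over Cy3, the wild type would be the numerator and every direction given here would turn round. If the logarithm were natural, each unit would be 1.44 log2 units, with the same tests. The deposited array medians ran from -0.95 to 0.92. The values as deposited keep these offsets in every gene, so a call gained or lost there does not speak for the gene alone. Pairs of arrays had correlations across genes (which are not independent replicates) of 0.0817 to 0.759. The median SD per gene over the 6 arrays was 0.35. All 6 arrays carry the dyes the same way round, so a dye bias of a gene and an effect of the mutation cannot be told apart.

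Of the 10 pathway genes, 2 rose in the mutant (TKL2 and SOL4), 3 fell (GND1, GND2 and RPE1) and 5 did not pass an adjusted p of 0.05 (limma, Benjamini-Hochberg over 5539 genes). Over all genes, 15.1% passed, 9.41% as higher and 5.69% as lower. The median of the 10 means was -0.12, against 0.01 for all genes, and the 10 means spread from -0.59 for GND1 to 1.56 for TKL2, so the genes did not move one way. TKL2, SOL4, GND2 and RPE1, 4 of the 10, had 1 sign throughout the 6 arrays, against 18.1% of all genes. TKL2 and SOL4 kept their calls under every one of the 15 alternative settings, whereas GND1, GND2 and RPE1 did not. The alternatives change the centring, the scaling, the spots, the fit or the arrays used. The number of pathway genes called was 3 without array 3, where 8.23% of all genes passed, and 2 without array 5 (9.35%) or array 6 (9.53%). It was 2 in the values as deposited (4.44%) and 3 with arrays 3 and 5 averaged and arrays 4 and 6 averaged (6.61%). Both the number and the share were lower there than in the reported setting (5 genes and 15.1%), but not in step with each other.

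**Figure D1:**
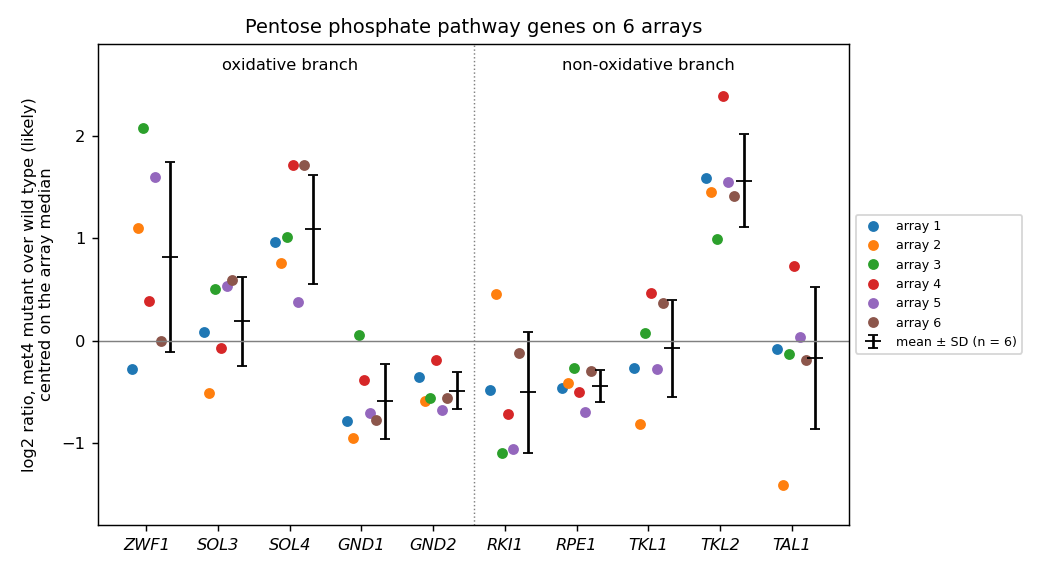
Centred log2 ratio (vertical axis, mutant over wild type, likely) of the 10 pathway genes on the 6 arrays (coloured points), with the mean ± SD over n = 6 in black. TKL2 and SOL4 lie above 0 on every array, GND2 and RPE1 below 0 on every array, and ZWF1 spreads from -0.27 to 2.08.

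The oxidative branch begins with ZWF1 (YNL241C), glucose 6-phosphate dehydrogenase, which makes the first NADPH. Its centred log2 ratio was -0.27, 1.10, 2.08, 0.39, 1.60 and 0.00 on arrays 1 to 6. It was above 1 on arrays 2, 3 and 5, near the array median on array 6 and below it on array 1. Its 2 spots differed most on array 2, where they read 0.76 and 1.44. ZWF1 had a next largest gap between spots of 0.15. The ZWF1 mean of 0.81 ± 0.93 (SD, n = 6) did not pass (limma, adjusted p = 0.0576, with a 95% interval from 0.24 to 1.39, not adjusted). Of the 15 alternatives it passed in 1, without array 1, at 1.03 (adjusted p = 0.0234). Its SD was larger than that of 98.5% of genes. On array 3 it stood at the 99.1st percentile of genes and on array 1 at the 19.0th.

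The second step, hydrolysis of 6-phosphogluconolactone, is encoded by SOL3 and SOL4. SOL4 (YGR248W), the minor isoenzyme, read 0.96, 0.76, 1.01, 1.71, 0.38 and 1.72 on arrays 1 to 6. It was above 0 on all of them, lowest on array 5 and highest on arrays 4 and 6. Its mean of 1.09 ± 0.53, a 2.13-fold ratio, passed (limma, adjusted p = 0.00219), and 84 of the 5539 genes had a higher mean. SOL3 (YHR163W), the major isoenzyme, read 0.08, -0.51, 0.51, -0.07, 0.54 and 0.59. It lay on both sides of 0, with a mean of 0.19 ± 0.44 that did not pass (limma, adjusted p = 0.468; 95% interval from -0.16 to 0.54).

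The third step, which makes the second NADPH, is catalysed by 6-phosphogluconate dehydrogenase, encoded by GND1 and GND2. GND1 (YHR183W), the major isoenzyme, read -0.79, -0.95, 0.05, -0.39, -0.71 and -0.78 on arrays 1 to 6, and so was below 0 on 5 of 6 arrays. Its mean of -0.59 ± 0.37 passed (limma, adjusted p = 0.0193), but not without array 1 (0.0637), array 5 (0.0585) or array 6 (0.0669), nor in the values as deposited (0.598). The call was also lost when the spots were split by deposited order into 48 equal stretches and each was centred on its own median (0.0764). These stretches are called print-order runs here, though the sample labels do not say that this order is that of printing. GND2 (YGR256W), the minor isoenzyme, read -0.36, -0.59, -0.56, -0.19, -0.68 and -0.56. It was below 0 on every array with a narrow spread, and its mean of -0.49 ± 0.18 passed (limma, adjusted p = 0.0201). The GND2 call was lost without array 3 (0.0622), array 5 (0.0701) or array 6 (0.0572), in the values as deposited (0.781) and with the alike arrays averaged (3 with 5, 4 with 6; 0.0783). Expressed as a ratio, GND1 was 1.51-fold and GND2 1.40-fold lower in the mutant.

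In the non-oxidative branch, RPE1 (YJL121C), ribulose 5-phosphate 3-epimerase, read -0.46, -0.41, -0.26, -0.50, -0.70 and -0.30 on arrays 1 to 6. It was below 0 on 6 of 6 arrays, with the smallest SD of the 10 genes, and its mean of -0.44 ± 0.16 passed (limma, adjusted p = 0.0304). The call held without array 2 and was lost without any other single array (adjusted p between 0.0541 without array 4 and 0.104 without array 5), as well as in the values as deposited (0.862), with print-order runs centred (0.155) and with the alike arrays averaged (0.0957). RPE1 has no paralog in the set. Its 2 spots differed most on array 6, where they read -0.02 and -0.58.

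RKI1 (YOR095C), ribose 5-phosphate ketol-isomerase, acts on the same substrate as RPE1 and makes ribose 5-phosphate. It read -0.48, 0.45, -1.10, -0.72, -1.05 and -0.12 on arrays 1 to 6. Array 2 alone was above 0, and there the 2 spots read -0.17 and 1.07, the widest gap between spots of 1 gene among the 10 genes. The mean of -0.50 ± 0.59 did not pass (limma, adjusted p = 0.0976). It passed as lower without array 2, at -0.69 (adjusted p = 0.0150), with 1 spot per gene (0.0358) and with array weights (0.0315).

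ZWF1 and RKI1 lie on different chromosomes but stand close together in the spot order, from positions 1035 and 1041, in the same of the 48 print-order runs. The median of that run was 0.80 on array 2 and 0.62 on array 6, on both arrays the highest of the 48 runs, and between -0.03 and 0.22 on the other 4. After centring each run on its own median, RKI1 read -0.51, -0.35, -1.28, -0.69, -1.28 and -0.74, below 0 on 6 of 6 arrays, and its mean of -0.81 ± 0.39 passed as lower (limma, adjusted p = 0.00776). ZWF1 then read -0.30, 0.30, 1.89, 0.42, 1.37 and -0.62, with a mean of 0.51 ± 0.96 (adjusted p = 0.272). The 2 high values of ZWF1 on arrays 3 and 5 remained above 1, and that on array 2 did not.

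**Figure D2:**
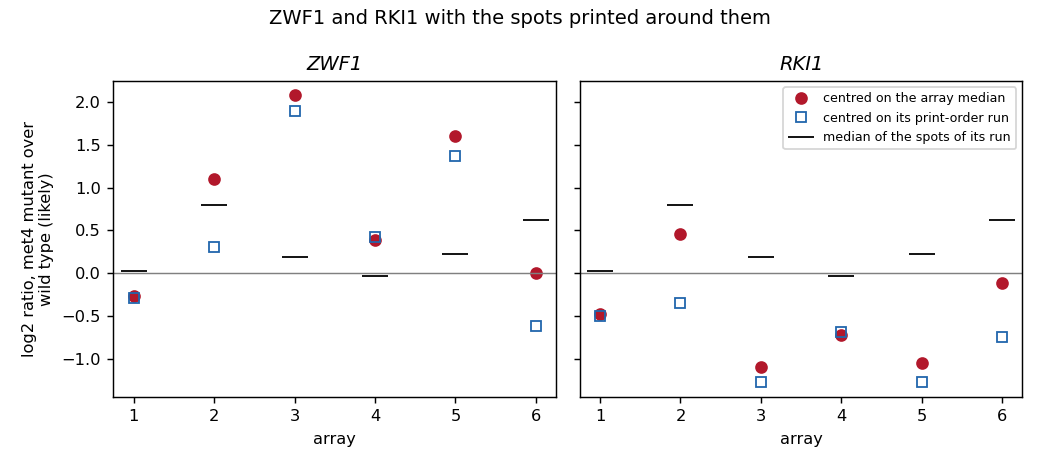
Log2 ratio (vertical axis, mutant over wild type, likely) of ZWF1 and RKI1 on arrays 1 to 6 (horizontal axis), centred on the array median (filled circles) or on the print-order run (open squares), with the median of all spots of that run (bars). The run median is highest on arrays 2 and 6, and RKI1 lies below 0 on all 6 arrays once it is subtracted.

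Transketolase, which moves 2-carbon units between sugar phosphates, is encoded by TKL1 and TKL2. TKL2 (YBR117C), the minor isoenzyme, read 1.59, 1.46, 0.99, 2.39, 1.56 and 1.41 on arrays 1 to 6. It was above 0 on all arrays and at or above the 93.8th percentile of genes on each. Its mean of 1.56 ± 0.46, a 2.96-fold ratio, was the highest of the 10 genes (limma, adjusted p = 0.000171), and 23 of 5539 genes had a higher mean. TKL1 (YPR074C), the major isoenzyme, read -0.26, -0.82, 0.08, 0.46, -0.27 and 0.37. It was above 0 on 3 arrays and below on 3, with a mean of -0.07 ± 0.48 (limma, adjusted p = 0.814; 95% interval from -0.44 to 0.29), and the sign of this mean turned without array 2 (0.07) and in the values as deposited (0.04).

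TAL1 (YLR354C), the main transaldolase, which moves 3-carbon units, read -0.08, -1.41, -0.13, 0.73, 0.04 and -0.19 on arrays 1 to 6. Array 2 was the lowest and array 4 the highest, and the other 4 lay within 0.20 of the array median. The mean of -0.17 ± 0.69 did not pass (limma, adjusted p = 0.636; 95% interval from -0.64 to 0.29), and without array 2 it was 0.07. NQM1 (YGR043C), the transaldolase paralog known as a stress-induced gene, read 1.94, 1.29, 2.24, 1.23, 1.59 and 1.27. It was above 1 on every array, and its mean of 1.59 ± 0.41 passed (limma, adjusted p = 0.000149) under all 15 alternatives as well.

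Paralogs were compared within each array, where any offset common to the array drops out. TKL2 minus TKL1 was 1.85, 2.27, 0.91, 1.93, 1.83 and 1.05 on arrays 1 to 6, with a mean of 1.64 ± 0.54. NQM1 minus TAL1 was 2.02, 2.70, 2.37, 0.50, 1.55 and 1.47, with a mean of 1.77 ± 0.78. Both differences were above 0 on 6 of 6 arrays, which gave p = 0.0312 in an exact two-sided sign-flip permutation test, the smallest that 6 arrays allow, and 0.0625 after adjustment over the 4 pairs compared.

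SOL4 minus SOL3 averaged 0.90 ± 0.67 and was above 0 on 5 of 6 arrays, with -0.16 on array 5 (exact sign-flip permutation test, p = 0.0625, adjusted 0.0833). With each print-order run centred, SOL4 minus SOL3 reached the smallest p as well, which gave all 3 of these pairs an adjusted p of 0.0417. For the other 2 pairs this came from the adjustment alone, and NQM1 minus TAL1 itself was smaller, at 1.57. GND2 minus GND1 was 0.43, 0.36, -0.61, 0.20, 0.03 and 0.22, with a mean of 0.10 ± 0.38 (exact permutation test, p = 0.50 before and after adjustment). The log2 ratio of the minor isoenzyme gene averaged 0.90 to 1.77 above that of the major one in 3 pairs. In the 6-phosphogluconate dehydrogenase pair the difference was 0.10, less than its SD. In the reported setting no pair passed an adjusted p of 0.05 (exact sign-flip permutation test, smallest adjusted p = 0.0625). With 4 pairs, a pair at the smallest p passes only where at least 3 pairs reach it. TKL2 minus TKL1 and NQM1 minus TAL1 therefore could not pass on their own values, whatever their size. The ratios compare mutant with wild type and do not rank the transcript levels of the paralogs. Probe sequences were not used here, and signal that a spot takes from the transcript of a close paralog, such as GND1 and GND2 are, cannot be told apart from its own.

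**Figure D3:**
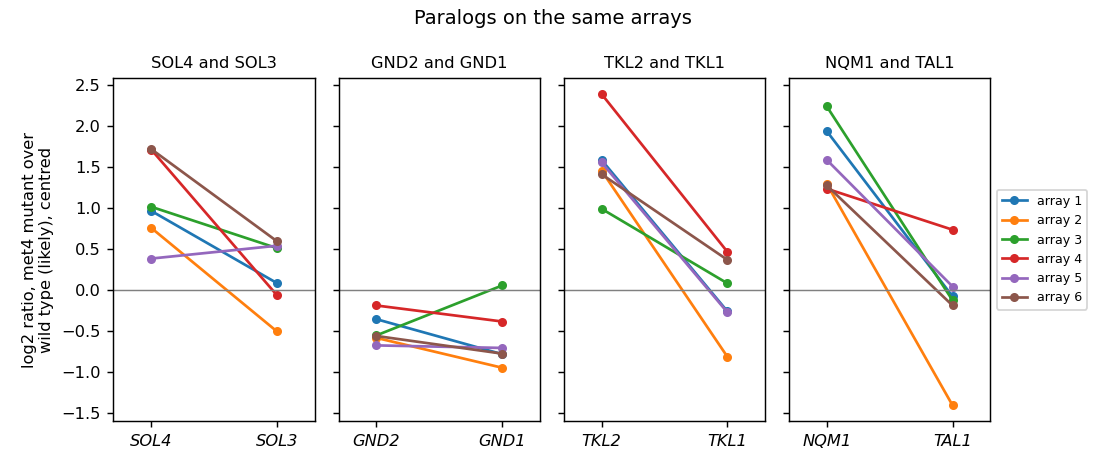
Centred log2 ratio (vertical axis, mutant over wild type, likely) of the minor isoenzyme gene (left in each panel) and the major one (right), with a line for each of the 6 arrays. TKL2 and NQM1 lie above TKL1 and TAL1 on every array, and SOL4 above SOL3 on 5 of 6. GND2 lies below 0 on every array, and GND1 on all but array 3 (0.05).

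SOL4 and GND2 lie near each other on the same chromosome, with 8 genes between them in the R64 gene table, as do their paralogs SOL3 and GND1, with 21 genes between them. Of these neighbours SOL4 rose and GND2 fell, and SOL3 stood at 0.19 where GND1 fell.

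The branches were compared as means, with no test. The mean of the 5 oxidative genes was -0.07, -0.04, 0.62, 0.29, 0.23 and 0.19 on arrays 1 to 6, and that of the 5 non-oxidative genes 0.06, -0.15, -0.08, 0.47, -0.09 and 0.23. Their difference averaged 0.13 ± 0.33 and was above 0 on 3 arrays and below on 3. It was largest on array 3, at 0.70, the array on which ZWF1 was highest. In the oxidative branch 1 gene rose, 2 fell and 2 did not pass, and in the non-oxidative branch 1 rose, 1 fell and 3 did not pass. Over all genes, 9.41% passed as higher and 5.69% as lower.

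**Figure D4:**
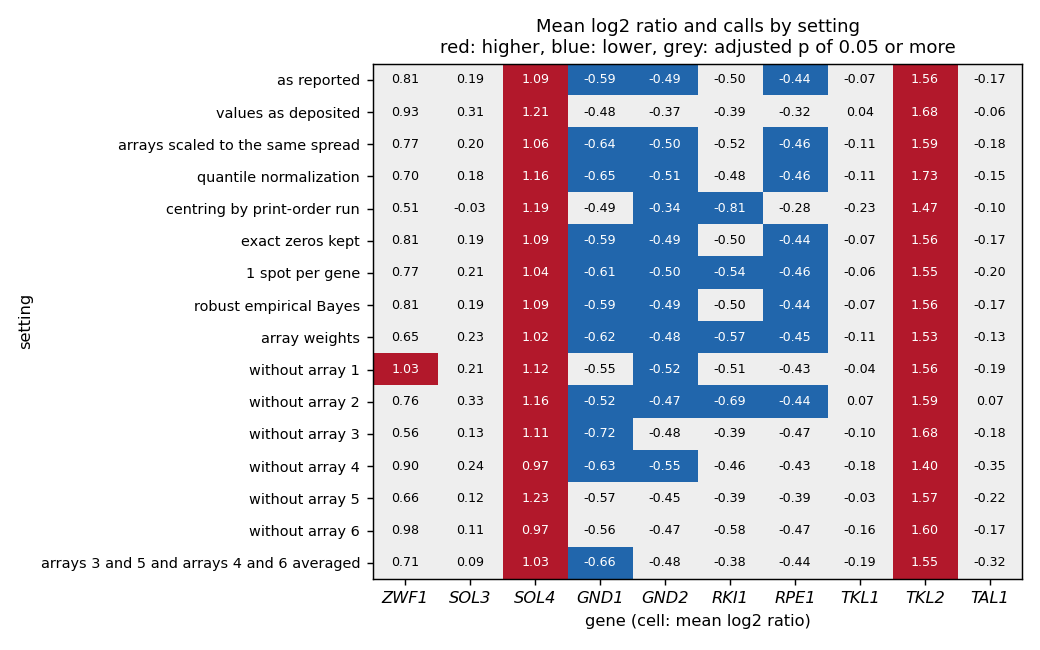
Mean log2 ratio (number in each cell, mutant over wild type, likely) of the 10 genes (columns) in the reported setting and 15 alternatives (rows), coloured where limma's adjusted p was under 0.05 (red higher, blue lower). TKL2 and SOL4 are red in every row, while GND1, GND2 and RPE1 are blue in the reported setting and lose the colour in others, including the values as deposited.

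Among 13 genes next to the pathway, 3 rose, 1 fell and 9 did not pass, with a median of 0.38. Over all genes, 9.41% passed as higher and 5.69% as lower. The number called was 2 without array 5, where 9.35% of all genes passed, or as deposited (4.44%), NQM1 and GRE3 in both. It was 7 with print-order runs centred (15.3%). Besides NQM1, GRE3 (YHR104W), an NADPH-dependent aldose reductase, rose by 1.20 ± 0.68 (limma, adjusted p = 0.00295), above 0 on 6 of 6 arrays. SOL2 (YCR073W-A), a homolog of SOL3 for which no lactonase role is established, rose by 0.68 ± 0.48 (adjusted p = 0.0175), a call lost without array 3, 4 or 5 (up to 0.0623), as deposited (0.133) and with the alike arrays averaged (0.120). PRS1 (YKL181W), a subunit of the synthetase that turns ribose 5-phosphate into phosphoribosyl pyrophosphate, fell by 0.50 ± 0.22 (adjusted p = 0.0220), a call lost without array 1, 5 or 6 (up to 0.0826), as deposited (0.771) and with the alike arrays averaged (0.0717). STB5, an activator of pathway genes under oxidative stress, stood at -0.16 ± 0.57 (adjusted p = 0.620).

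Of 8 genes for other sources of NADPH and for NAD kinases, 0 passed (limma), against 15.1% of all genes. Their median was -0.02, and 1 had an unadjusted p under 0.05. That gene was MAE1 (YKL029C), the mitochondrial malic enzyme, at -0.47 ± 0.54 (adjusted p = 0.103). Without array 5 it stood at -0.26 (0.299). It passed with print-order runs centred (0.0473), and without array 4 the NAD kinase gene YEF1 passed as higher, at 0.56 (0.0180), against 0.32 on all arrays. ALD6, the cytosolic aldehyde dehydrogenase that is another main source of NADPH, stood at -0.25 ± 0.37 (adjusted p = 0.287), and IDP2, the cytosolic isocitrate dehydrogenase, at 0.18 ± 0.31 (adjusted p = 0.432).

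Of 14 genes for enzymes that use NADPH, 1 rose, 1 fell and 12 did not pass, with a median of 0.07. Among all genes 15.1% passed, a share close to that of this list. MET5 (YJR137C), a subunit of sulfite reductase, fell by 0.91 ± 0.60 (limma, adjusted p = 0.00900, and 0.141 as deposited). MET10, for the other subunit, stood at -0.19 ± 0.20 and below 0 on 5 of 6 arrays, and did not pass (adjusted p = 0.346). OYE3 (YPL171C), an NADPH oxidoreductase, rose by 1.73 ± 1.64 (adjusted p = 0.0205), a call lost without array 3 (0.0688), with print-order runs centred (0.0651), with robust empirical Bayes (0.0677) and with the alike arrays averaged (0.115). GLR1, glutathione reductase, stood at 0.51 ± 0.66 (adjusted p = 0.120). It passed as higher with print-order runs centred (0.67, adjusted p = 0.0373) and stood at 0.32 without array 3. ZWF1 had its 2 highest values on arrays 3 and 5, and so did 7 of these 14 genes, GLR1, OYE3 and GRE2 among them, against 11.9% of all genes. This count was chosen after the values were seen, and it was not made for the other lists. Genes of those lists had their 2 highest values there as well, GLK1, PGM2, STB5 and YEF1 among them, so the pattern is not particular to NADPH users. Arrays 3 and 5 were also the most alike of all pairs (r = 0.759), and no other pathway gene had its 2 highest values there.

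At the glucose 6-phosphate branch point, 1 of 8 genes rose, 1 fell and 6 did not pass, with a median of -0.08. Over all genes, 9.41% passed as higher and 5.69% as lower. PGM2 (YMR105C), the main phosphoglucomutase, rose by 0.95 ± 0.44 (limma, adjusted p = 0.00269) and kept its call under all 15 alternatives. HXK2 (YGL253W), the main hexokinase on glucose, fell by 0.70 ± 0.37 (adjusted p = 0.00900; 0.416 as deposited). PGI1, phosphoglucose isomerase, which draws glucose 6-phosphate into glycolysis, stood at 0.36 ± 0.53 (adjusted p = 0.200), and GLK1, glucokinase, at 0.97 ± 1.14 (adjusted p = 0.0568). Both passed as higher without array 2 (adjusted p = 0.0498 and 0.0150), which brought the number called to 4, where 17.4% of all genes passed. GLK1 also passed with quantile normalization (0.0283), with array weights (0.0426) and as deposited (0.0152), where the array offsets remain in every gene. Without array 5 GLK1 stood at 0.59.

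**Figure D5:**
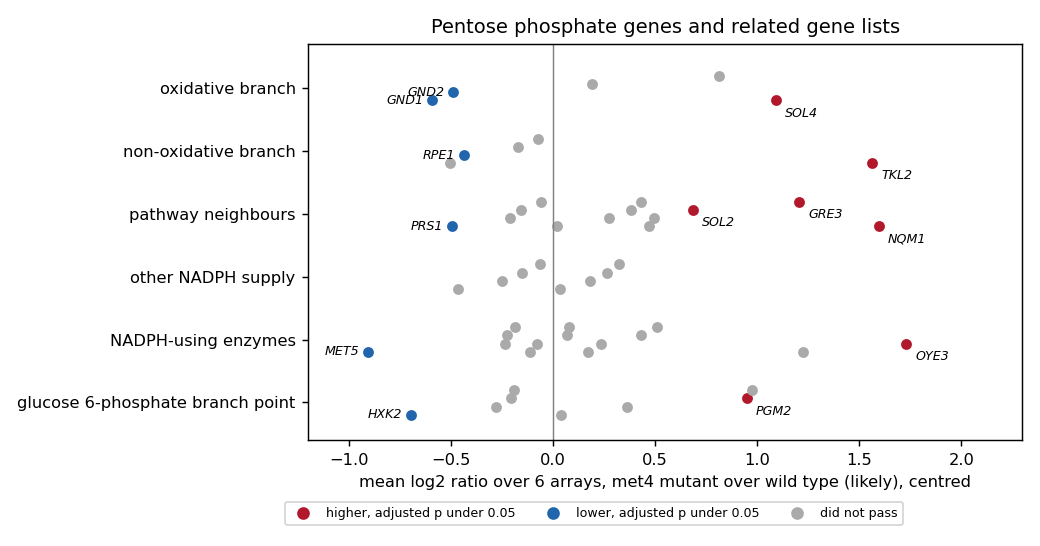
Mean log2 ratio over 6 arrays (horizontal axis, mutant over wild type, likely) of each gene in the 2 branches and 4 related lists (vertical axis), red or blue where limma's adjusted p was under 0.05. OYE3, NQM1, TKL2, GRE3 and SOL4 are the red genes above 1, no gene of the other NADPH sources is coloured, and the coloured genes below 0 lie between -0.91 and -0.44.

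For each pathway gene that passed, the closest patterns outside the lists were taken as the 2 genes with the smallest root mean square difference over the 6 arrays. TKL2 was nearest to PUN1 (0.32) and IML2 (0.42 log2 units), the widest gaps of the 5 genes. SOL4 was nearest to YCR099C (0.19) and HMX1 (0.20), GND1 to YER076C (0.16) and TOF1 (0.18), GND2 to ESC1 (0.07) and LYS21 (0.08), and RPE1 to ISC1 (0.11) and AFT1 (0.13).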

How the data were processed

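Two-colour arrays of total RNA were analysed from the deposited value table, 6 columns matched to samples by accession, with 0 columns left unused. Each deposited value is the log ratio between channels at 1 of 13056 spots, read as log2. Base, numerator, background correction and genome build are not stated in the labels or files, and no channel intensities were used, so dim spots could not be set aside.

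Exact zeros (134 spots, 0 of them of the 10 genes) were set to missing and each array was centred on its median over all spots. The platform annotation names 11138 spots. Spots of a gene were averaged, giving 5539 genes with locus names from the R64 gene table. Gene means were set against 0 by limma (version 3.58.1, under R 4.3.3; intercept-only lmFit and eBayes, Benjamini-Hochberg over all genes, threshold 0.05), after a test on simulated data. Pairs of paralogs were tested by exact sign-flip permutation over 64 sign patterns. Lists are given as counts and medians, with no test.

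The members, the lists and the alternatives were chosen with earlier results of these data known. Named genes are every pathway gene, MET4, NQM1, the genes of each list past the threshold (if none, the one with the smallest adjusted p) and the 2 nearest patterns for each pathway gene that passed. STB5, ALD6, IDP2, GLR1, GRE2, YEF1, GLK1, PGI1 and MET10 were added after their values were seen. The number of arrays limits the precision.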

Additional observations from a re-analysis of the deposited data

Results flagged for a closer look

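Of 33 values examined on 6 arrays (named genes apart from MET10 and the nearest patterns, paralog differences and the branch difference), 2 had a sample far from the others. MAE1, the mitochondrial malic enzyme, read -1.48 on array 5, against -0.61 on the next lowest array and -0.09 on the highest. YEF1, an NAD kinase gene, read -0.85 on array 4, against 0.37 on the next lowest array and 0.73 on the highest. Chance alone sets off this limit in about 5% of groups.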

How the results depend on the processing

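TKL2 ranged from 1.40 to 1.73 and SOL4 from 0.97 to 1.23 over the 15 alternatives, with adjusted p of at most 0.00261 and 0.0149 (limma). The number of pathway genes called was 2 in the values as deposited and 3 with the alike arrays averaged (3 with 5, 4 with 6), and between 2 and 6 when 1 array was left out. The number of all genes called was 246, 366 and between 456 and 965 under the same settings, against 836. The median over all gene means was 0.01 after centring and 0.12 as deposited. With print-order runs centred, SOL4 minus SOL3 was 1.22, TKL2 minus TKL1 1.70 and NQM1 minus TAL1 1.57, each with adjusted p = 0.0417, which for the last 2 follows from the first reaching the smallest p, and SOL3 turned to -0.029. The sign also turned for TKL1 (0.041 as deposited, and between -0.18 and 0.074 without 1 array) and for TAL1 (between -0.35 and 0.075 without 1 array). The cause of these changes was not tested. The branch difference stayed between 0.01 and 0.19. Leaving out 1 array gives the sign-flip test too few patterns to pass, so only values were compared there. Each ratio already pairs mutant with wild type on 1 array. No paired analysis by replicate number was added because the arrays form 1 group.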
